A study of Mus musculus with 9 samples.

Results

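A set of 10 genes of heart and striated muscle were read out in whole mouse lung: Tnnt2, Tnni3, Myh6, Myl4, Myl7, Actc1, Mb, Sln and Nppa, which are expressed in cardiac muscle, and Tnnt3, a troponin of fast skeletal muscle. The members were taken by gene symbol, as a list chosen with earlier results of these data known. Each of them is among the 55359 genes of the deposited table. All 10 had an FPKM (reads of a gene scaled by its exonic length and by the library total) of at least 1 in at least 3 libraries, as had 15459 genes in all.

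The lungs came from male C57BL/6J mice aged 6 to 8 weeks, in groups of 20 mice, taken at day 28. Control mice received saline into the trachea, and Silica mice received 5 mg of silica by the same route, a model of silicosis. Mice of the Silica + ATL-III group received the same silica together with atractylenolide III (ATL-III), a plant sesquiterpene lactone, injected into the abdominal cavity at 30 mg per kg per day. Each group has 3 libraries of poly(A) RNA from lung tissue, there is no group with ATL-III and no silica, and the labels name no injected vehicle. The labels also do not say whether a library is 1 mouse, so p-values reflect only how these samples differ from one another, and that spread may be technical.

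In rodents the walls of the pulmonary veins hold a sleeve of cardiac muscle that runs from the left atrium into the lung. These cells carry a cardiac contractile apparatus, so whole lung of a mouse normally contains transcripts of cardiac myosin, actin and troponin. In the sarcomere, thick filaments of myosin pull on thin filaments of actin, and the troponin complex on the thin filament makes this pull depend on calcium. In bulk tissue, fewer cells of a type and less RNA per cell cannot be told apart.

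Promoter sequences from RefSeq (GRCm38.p6), running from 250 bases before to 50 bases after a start site, matched 8 of the 10 members, with 11 entries. Sln and Tnnt3 had no entry. The 4 printed here belong to the members whose levels diverged most from each other in 1 Silica library (Nppa and Myl7 high, Myh6 low) and to Actc1, one of the members lowest after silica. Capitals mark 3 motifs on either strand: the CArG box bound by serum response factor, GATAA (or TTATC) of GATA factors, and CATTCC (or GGAATG) of TEAD factors. No capital stretch overlaps another. Each sequence is given 5′ to 3′ on the strand of its gene, at chr4:148000472-148000771 (plus strand) for Nppa, chr11:5898733-5899032 (minus) for Myl7, chr14:54966558-54966857 (minus) for Myh6 and chr2:114052826-114053125 (minus) for Actc1.
Nppa promoter: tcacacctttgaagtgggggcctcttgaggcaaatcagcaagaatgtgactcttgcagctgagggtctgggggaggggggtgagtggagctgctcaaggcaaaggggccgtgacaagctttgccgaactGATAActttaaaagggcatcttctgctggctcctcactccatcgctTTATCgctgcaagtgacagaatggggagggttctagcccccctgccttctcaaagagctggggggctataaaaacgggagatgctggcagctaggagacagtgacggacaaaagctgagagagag
Myl7 promoter: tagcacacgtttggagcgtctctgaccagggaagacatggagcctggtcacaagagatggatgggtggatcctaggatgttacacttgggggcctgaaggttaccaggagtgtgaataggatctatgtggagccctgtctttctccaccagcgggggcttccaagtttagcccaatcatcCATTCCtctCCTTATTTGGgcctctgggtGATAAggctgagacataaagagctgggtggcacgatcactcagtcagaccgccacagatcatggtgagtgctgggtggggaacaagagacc
Myh6 promoter: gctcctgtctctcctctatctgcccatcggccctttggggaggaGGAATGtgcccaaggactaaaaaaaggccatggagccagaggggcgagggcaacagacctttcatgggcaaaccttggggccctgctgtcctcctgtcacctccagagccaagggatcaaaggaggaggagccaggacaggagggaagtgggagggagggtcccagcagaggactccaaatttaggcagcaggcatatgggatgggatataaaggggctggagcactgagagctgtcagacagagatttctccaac
Actc1 promoter: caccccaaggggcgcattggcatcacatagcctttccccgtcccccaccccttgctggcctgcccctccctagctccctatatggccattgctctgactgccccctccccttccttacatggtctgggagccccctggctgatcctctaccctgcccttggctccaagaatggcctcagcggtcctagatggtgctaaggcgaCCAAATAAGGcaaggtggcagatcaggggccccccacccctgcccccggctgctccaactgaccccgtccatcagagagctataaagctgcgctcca
Myl7 holds 1 match to each of the 3 motifs, with the CATTCC match beginning at -70, the CArG box at -61 and the GATAA at -41 from the start site. Nppa holds 2 GATAA matches, Actc1 holds a CArG box at -47, and Myh6 holds 1 CATTCC match at -206. A CArG box lay in 2 of the 11 member entries and in 1.63% of the 32851 promoters of the same length in the table. GATAA lay in 4 member entries and 25.4% of all promoters, CATTCC in 3 entries and 14.7%, and TATAAA, searched on both strands like the others, in 3 entries and 13.6%. The MEF2 motif was found in none of the 11 member entries, against 3.19% of all promoters, and CANNTG in 10, against 72.3%. A match is only a description of these letters.

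After silica the cardiac muscle genes of the lung were lower as a group. The fit called 8 of the 10 members lower in Silica than in Control and 0 higher, where 7.81% of all tested genes were called lower, 9.11% higher and 16.9% in either direction (edgeR, adjusted p under 0.05 over all tested genes). These 8 include Tnnt3, the skeletal member, whose call was lost without Control 3, and leave out the cardiac Myl7 and Nppa. The median log2 fold change of the 10 members, Tnnt3 included, was -0.94, beside -0.01 over all tested genes. The FPKM of Silica lay below all Control values, without overlap, for 9 of the 10 members (all but Nppa), where 28.9% of all tested genes did so. The number called lower was 5 without Silica 1 or without Silica 3 and 8 with all libraries.

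**Figure D1:**
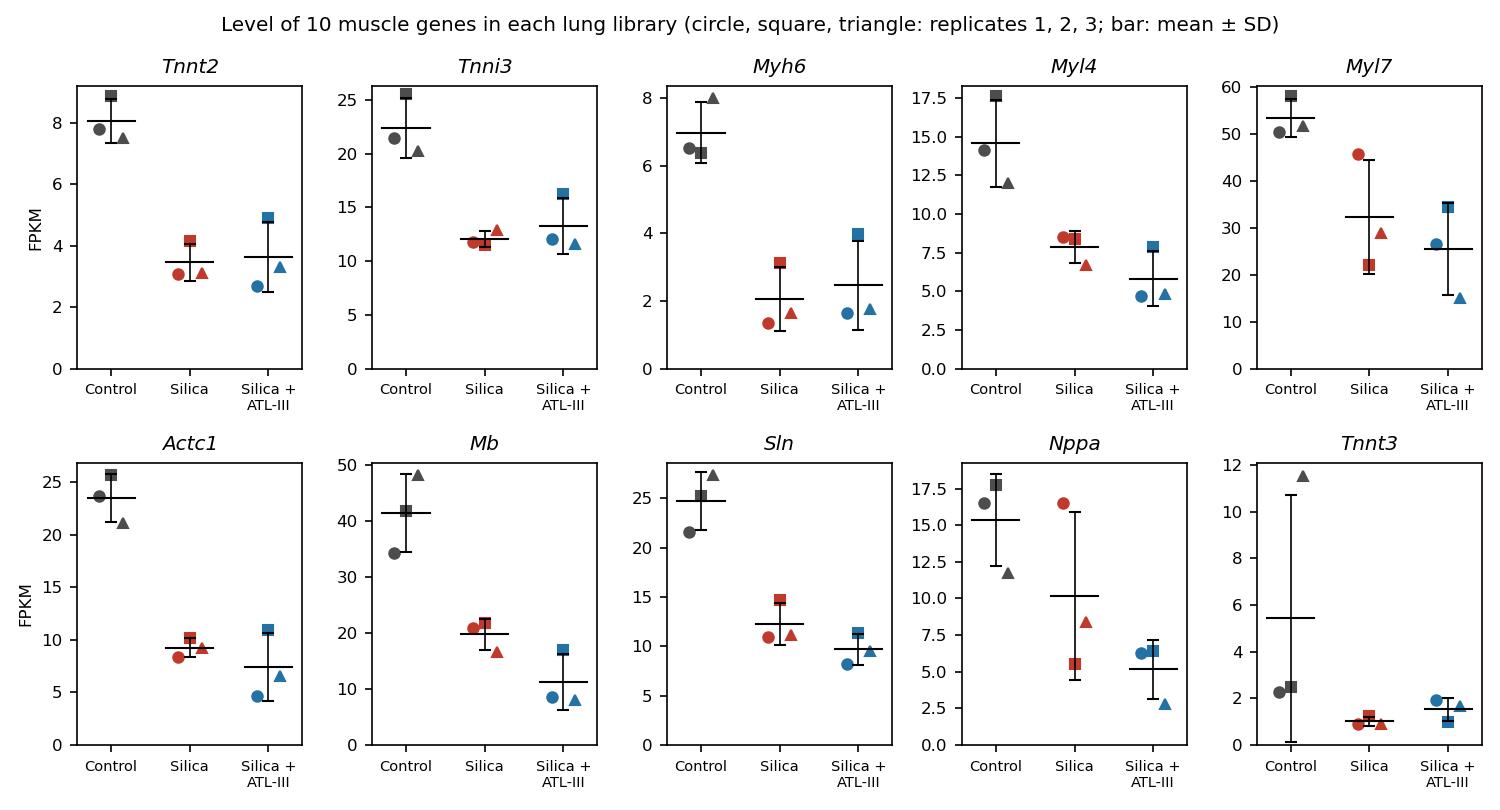
Deposited FPKM (linear axis from 0, own scale per gene) of each of the 10 members in each of the 9 libraries, with symbols for replicates 1 to 3 and bars for the group mean ± SD. Control points lie above all Silica points in each panel except Nppa, where Silica 1 reaches 16.5 FPKM like Control 1.

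The thin filament was represented by cardiac troponins T and I and by cardiac actin. Tnnt2 (ENSMUSG00000026414, chromosome 1), cardiac troponin T, which ties the complex to tropomyosin, stood at 7.79, 8.87 and 7.50 FPKM in Control 1 to 3. It was at 3.08, 4.16 and 3.11 in the Silica libraries and at 2.69, 4.89 and 3.29 with ATL-III. All 6 silica-exposed libraries lay below the lowest Control. The fall after silica was -1.13 ± 0.19 (log2 fold change ± SE, adjusted p = 0.00394), from a mean of 8.05 ± 0.722 to 3.45 ± 0.615 FPKM (SD, n = 3 each, edgeR fit).

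Tnni3 (ENSMUSG00000035458, chromosome 7), cardiac troponin I, the inhibitory subunit, had 21.5, 25.6 and 20.2 FPKM in Control. It had 11.7, 11.5 and 12.9 in Silica and 12.0, 16.2 and 11.6 with ATL-III. The Silica libraries were close to each other and far below every Control. Its change was -0.80 ± 0.14 (adjusted p = 0.00528, edgeR). Exons of Tnni3 overlap those of Dnaaf3 on the same strand, a dynein assembly factor gene that stood at 11.2 to 11.4 FPKM in Control, 6.18 to 10.2 in Silica and 10.1 to 13.0 with ATL-III, so the split of reads between these genes is uncertain.

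Actc1 (ENSMUSG00000068614, chromosome 2), the alpha actin of cardiac thin filaments, was at 23.8, 25.7 and 21.1 FPKM in Control. It was at 8.42, 10.2 and 9.21 in Silica and at 4.71, 11.0 and 6.55 with ATL-III. The Control and Silica ranges are far apart, and ATL-III 1 is the lowest of the 9 libraries. The change after silica was -1.25 ± 0.23 (adjusted p = 0.00619, edgeR). Actin genes are near-identical in coding sequence, so reads shared with Acta1 or Acta2 leave the level of Actc1 uncertain.

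The thick filament was represented by a myosin heavy chain and both atrial light chains. Myh6 (ENSMUSG00000040752, chromosome 14), the alpha myosin heavy chain that is the fast motor of the heart, had 6.53, 6.37 and 8.01 FPKM in Control. Its values were 1.36, 3.13 and 1.65 in Silica and 1.65, 3.97 and 1.76 with ATL-III. No library of either silica-exposed group reached a Control value, and the second library of each was the highest of its group. The fall after silica was -1.68 ± 0.34 (adjusted p = 0.00889, edgeR), the deepest of the 9 cardiac members. Reads shared with Myh7, its neighbour and close copy, could be split either way.

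Myl4 (ENSMUSG00000061086, chromosome 11), the atrial essential light chain, stood at 14.1, 17.6 and 12.0 FPKM in Control. It stood at 8.54, 8.41 and 6.70 in Silica and at 4.70, 7.86 and 4.84 with ATL-III. Every silica-exposed library was below every Control. The change after silica was -0.79 ± 0.20 (adjusted p = 0.0229, edgeR), and the call was lost when Control 1, Control 2, Silica 1 or Silica 3 was left out (adjusted p up to 0.0888).

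Myl7 (ENSMUSG00000020469, chromosome 11), the atrial regulatory light chain, stood at 50.5, 58.1 and 51.7 FPKM in Control. It had 45.7, 22.1 and 28.9 in Silica and 26.6, 34.5 and 15.1 with ATL-III. The groups did not overlap, but Silica 1 lay just under the lowest Control and well above the other Silica libraries. The difference of -0.62 ± 0.29 did not pass the test (adjusted p = 0.152, edgeR), and without Silica 1 it was -0.98 (adjusted p = 0.0638).

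The 3 other cardiac members serve other functions of the muscle cell. Mb (ENSMUSG00000018893, chromosome 15), myoglobin, the oxygen store of heart and red muscle, had 34.2, 41.7 and 48.1 FPKM in Control. Its values were 20.9, 21.7 and 16.6 in Silica and 8.64, 17.0 and 8.03 with ATL-III. The 3 groups stepped down in order, with ATL-III 2 inside the Silica range. The change after silica was -0.97 ± 0.24 (adjusted p = 0.0211, edgeR), lost without Control 2, Control 3, Silica 1 or Silica 3 (adjusted p up to 0.0822).

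Sln (ENSMUSG00000042045, chromosome 9), sarcolipin, a small inhibitor of the sarcoplasmic reticulum calcium pump that is typical of atrial muscle, was at 21.6, 25.2 and 27.4 FPKM in Control. It was at 11.0, 14.7 and 11.1 in Silica and at 8.20, 11.3 and 9.51 with ATL-III. All silica-exposed libraries were well under the Control range. Its change of -0.91 ± 0.15 after silica (adjusted p = 0.00389, edgeR) held its call without any single library, as did those of Tnnt2, Tnni3, Myh6 and Actc1.

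Nppa (ENSMUSG00000041616, chromosome 4), the atrial natriuretic peptide precursor, a hormone of atrial muscle, had 16.5, 17.7 and 11.8 FPKM in Control. It had 16.5, 5.50 and 8.38 in Silica and 6.25, 6.42 and 2.80 with ATL-III. Silica 1 equalled Control 1, while the other Silica libraries were below all Control values. The difference of -0.48 ± 0.38 did not pass the test (adjusted p = 0.394, edgeR). Without Silica 1 it was -1.05 (adjusted p = 0.0942).

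Tnnt3 (ENSMUSG00000061723, chromosome 7), the troponin T of fast skeletal fibres, was at 2.27, 2.48 and 11.5 FPKM in Control. It was at 0.91, 1.24 and 0.89 in Silica and at 1.94, 0.98 and 1.68 with ATL-III. Control 3 stands far above the other 8 libraries, which hold 25 to 63 counts against its 296. The fitted change after silica was -2.32 ± 0.58 (adjusted p = 0.0217, edgeR). Without Control 3 it was -1.13 and did not pass the test (adjusted p = 0.0687), and the call was also lost without Silica 1 or Silica 3.

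**Figure D2:**
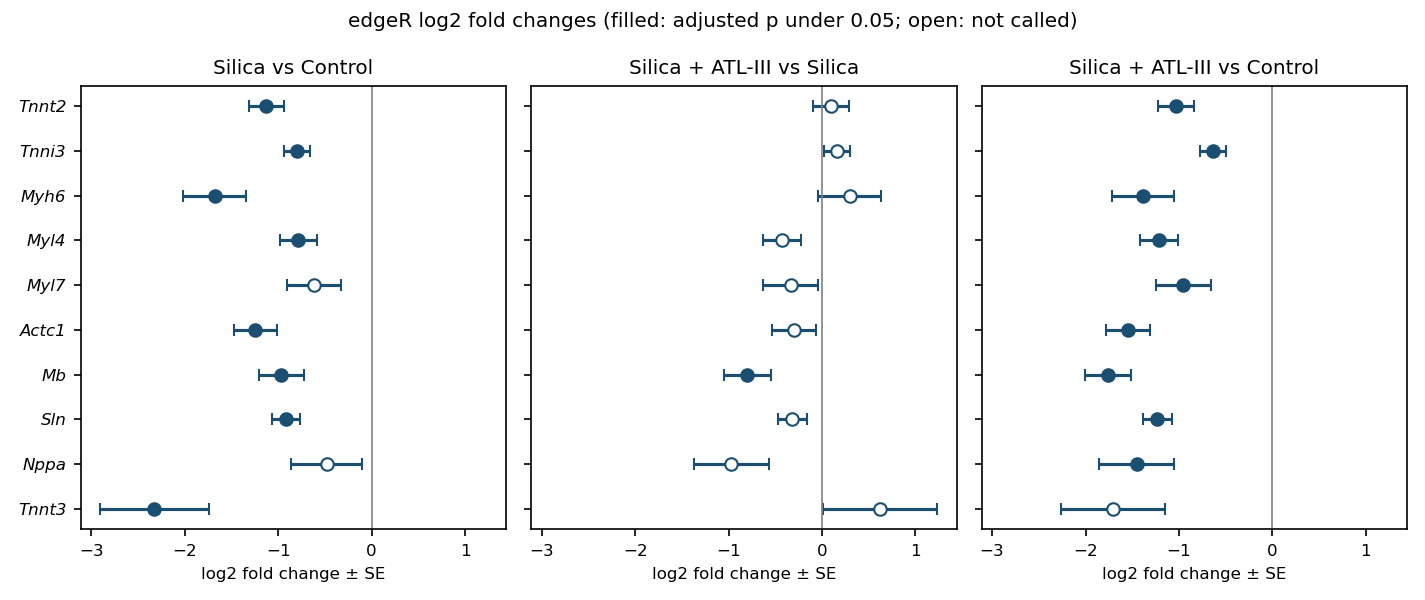
Log2 fold change with SE (bars) of the 10 members in the 3 comparisons of groups from the edgeR fit, filled where the adjusted p is under 0.05. The 2 comparisons with Control lie below 0 for all members, and Mb alone is called between the silica-exposed groups.

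With ATL-III the members stayed low. Against Control, 9 of the 10 were called lower in Silica + ATL-III and 0 higher, where 6.71% of all tested genes were called lower and 9.14% higher. Their median log2 fold change was -1.31, beside -0.01 over all tested genes, and the FPKM of the 2 groups did not overlap for 10 of the 10 members, against 30.6% of all tested genes in that direction. This comparison shares its Control libraries with the one of Silica against Control, so they are not independent. Among the 9 called members, the lowest values were those of Mb at -1.76 ± 0.25 (adjusted p = 6e-04, edgeR), Actc1 at -1.55 ± 0.23 (adjusted p = 0.000955) and Nppa at -1.45 ± 0.40 (adjusted p = 0.0286). Myh6 was at -1.38 ± 0.33, Sln at -1.23 ± 0.16, Myl4 at -1.21 ± 0.20, Tnnt2 at -1.03 ± 0.19, Myl7 at -0.95 ± 0.29 and Tnni3 at -0.64 ± 0.14. Their adjusted p ran from 0.000315 (Sln) to 0.0467 (Myl7). Tnnt3, at -1.70 ± 0.56, did not pass the test (adjusted p = 0.0592), and was at -0.51 without Control 3. The calls of Tnnt2, Tnni3, Myl4, Actc1, Mb and Sln held without any single library, whereas that of Myh6 was lost without Control 3, ATL-III 1 or ATL-III 3. The call of Myl7 was lost without any 1 Control library, Silica 3, ATL-III 1 or ATL-III 3 (adjusted p up to 0.122), and that of Nppa without Control 1, Control 2, ATL-III 1 or ATL-III 3 (adjusted p up to 0.0832).

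Between the silica-exposed groups, 1 of the 10 members was called lower with ATL-III and 0 higher. The background was 10% lower and 11.2% higher, so the members' share is that of all genes. The FPKM of the 2 groups lay apart, with ATL-III lower, for 0 of the 10 members and for 19.6% of all tested genes. The called member was Mb, at -0.80 ± 0.25 (adjusted p = 0.0388, edgeR), with means of 19.8 ± 2.74 FPKM in Silica and 11.2 ± 4.99 with ATL-III. Its groups overlap, and the call was lost without any 1 of Control 2, the 3 Silica libraries, ATL-III 1 and ATL-III 3 (adjusted p up to 0.13). Tnnt2, Tnni3 and Myh6 differed by 0.09 ± 0.19, 0.16 ± 0.14 and 0.29 ± 0.34. Nppa differed by -0.97 ± 0.40 (adjusted p = 0.105, edgeR), Myl4 by -0.42 ± 0.20 and Tnnt3 by 0.62 ± 0.61. Actc1, Sln and Myl7 stood at -0.30 ± 0.24, -0.32 ± 0.16 and -0.33 ± 0.30. A p that misses the threshold does not show equal levels.

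ATL-III 2 decided part of this comparison. It had the highest level of the 3 ATL-III libraries for all 9 cardiac members, at a median of 53.9% of the Control mean, against 33.2% in ATL-III 1 and 28.2% in ATL-III 3. Without it, Tnnt2 stood at -0.18, Tnni3 at -0.01 and Myh6 at -0.23, and 3 members were called lower. The count was 0 without Control 2, Silica 1, Silica 3, ATL-III 1 or ATL-III 3.

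Silica 1 split the cardiac members. Relative to the Control mean of each gene, its Myh6 was at 19.5% and its Nppa at 108%, with Myl7 at 85.5% and a median of 50.7% over the 9 cardiac members. In Silica 2 the same genes ran from 35.9% (Nppa) to 59.5% (Sln), and in Silica 3 from 23.7% (Myh6) to 57.4% (Tnni3). The FPKM of Myl7 was 33.6 times that of Myh6 in Silica 1, 7.05 times in Silica 2 and 17.5 times in Silica 3. In Control the same ratio was 7.73, 9.12 and 6.45, and with ATL-III it was 16.1, 8.70 and 8.57, so the groups overlap. The ratio of Nppa to Myl7 was steadier, at 0.228 to 0.328 in Control, 0.249 to 0.362 in Silica and 0.186 to 0.235 with ATL-III.

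**Figure D3:**
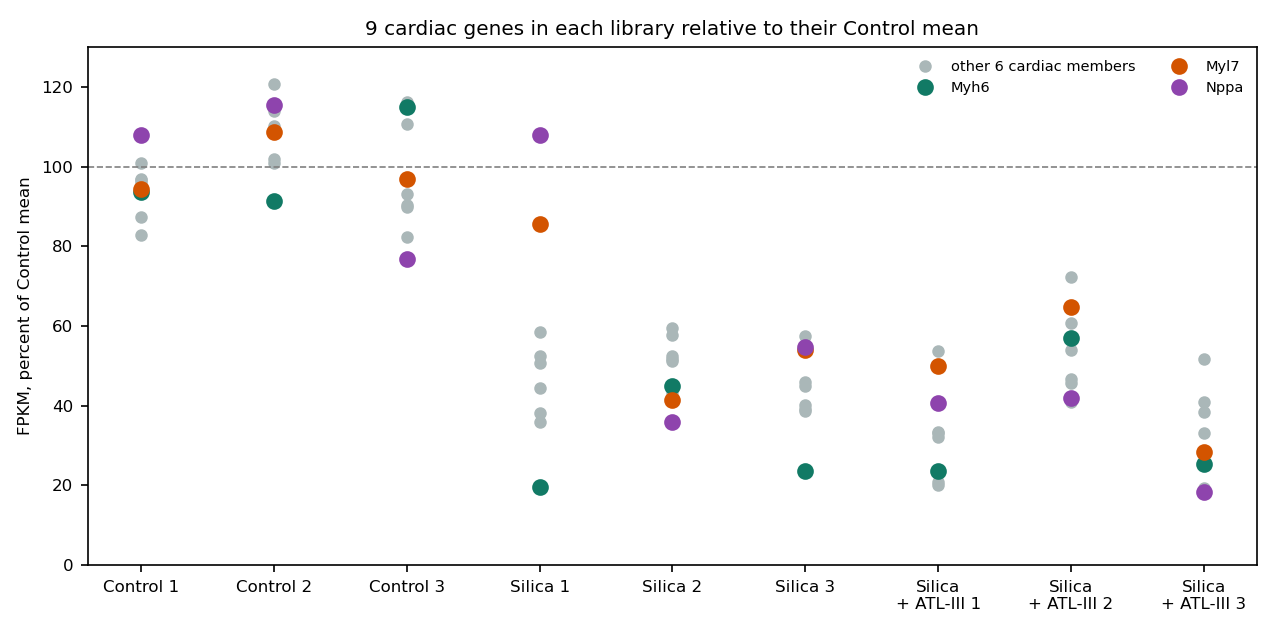
FPKM of the 9 cardiac members in each of the 9 libraries as a percent of each gene's Control mean (dashed line at 100%), with 1 point per gene and Myh6, Myl7 and Nppa coloured. In Silica 1 Nppa is at 108% and Myl7 at 85.5% while Myh6 is at 19.5%, and in Silica 2 all 9 genes lie between 35.9% and 59.5%.

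Across the 9 libraries the cardiac members moved together, which describes groups and libraries at once. Of the 36 pairs of the 9 cardiac genes, Pearson r of log2 CPM ran from 0.393 to 0.961 with a median of 0.83. The 21 pairs without Myl7 and Nppa ran from 0.753 to 0.961. Myl7 or Nppa with 1 of the other 7 ran from 0.393 to 0.821, while Myl7 and Nppa had an r of 0.95 with each other. Tnnt3 with the 9 cardiac genes ran from 0.178 to 0.663. The points share library, depth and group, so no p is given.

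By mean FPKM, Myl7 was the highest member in each group. In Control, Myl7 (53.4 ± 4.10 FPKM) and Mb (41.4 ± 6.94) came first, followed by Sln (24.7 ± 2.91), Actc1 (23.5 ± 2.29) and Tnni3 (22.4 ± 2.79), whose ranges overlap. Nppa (15.3 ± 3.15) and Myl4 (14.6 ± 2.82) also overlap, as do Tnnt2, Myh6 (6.97 ± 0.904) and Tnnt3 (5.43 ± 5.29) at the low end. In Silica, Myl7 (32.2 ± 12.2) and Mb (19.8 ± 2.74) again came first, each neighbour from Sln (12.3 ± 2.11) through Tnni3, Nppa and Actc1 to Myl4 (7.88 ± 1.03) overlapped the next, and Tnnt2, Myh6 and Tnnt3 (1.01 ± 0.197) were last. With ATL-III the ranges of all neighbours overlapped, from Myl7 (25.4 ± 9.78) to Tnnt3 (1.53 ± 0.497). FPKM divides by all exonic bases, and these are 7752 for Tnnt2 and 4637 for Myl4, whose longest coding transcripts have 1200 and 943 bases. Per kilobase of the longest coding transcript, Myl4 came first in Control at 71.7 ± 13.9, and Tnnt2 at 52.0 lay beside Mb at 55.9, Myl7 at 53.4 and Tnni3 at 50.7. Myh6 then came last, at 7.67.

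Other genes expressed in cardiac muscle cells were read from lists that leave the members out. Hopx, which is also on a list of alveolar epithelial genes, averaged 680 FPKM over the 9 libraries and Cryab 87.3, against 3.83 for Myh6. The lists are thus not specific to cardiac muscle. Their counts stand beside background shares of 7.81% called lower and 9.11% higher for Silica against Control, 6.71% and 9.14% for Silica + ATL-III against Control, and 10% and 11.2% for Silica + ATL-III against Silica. The median over all tested genes was -0.01 in each comparison with Control and -3e-04 between the silica-exposed groups. Of 25 sarcomere partners, 16 were tested, and 9 fell after silica and 0 rose, with a median of -0.67. Actn2 (1.28 to 1.57) and Lmod2 (1.79 to 2.33) reached an FPKM of 1 in Control alone, and Ldb3 only there and in Silica 2 (1.05). Testing genes through the group where they are high tilts the counts and median of this list against Control toward lower. The number that fell was 4 without Control 1, Silica 1 or Silica 3, while the calls of the 3 genes named next held without any single library. Ldb3, a Z-disc scaffold, fell by 1.12 ± 0.20 on the log2 scale (adjusted p = 0.00606, edgeR). Csrp3, the muscle LIM protein, fell by 1.08 ± 0.20 (adjusted p = 0.00708), and Myoz2, a calcineurin-binding Z-disc protein, fell by 1.14 ± 0.23 (adjusted p = 0.00948). Csrp3 stood at 4.60, 4.99 and 6.01 FPKM in Control and at 2.02 to 2.67 in Silica. With ATL-III 11 of the 16 were lower than in Control and 0 higher (median -0.90), and against Silica 2 were lower (Tpm1, Nexn) and 2 higher (Mybpc3, Myom1), named after their values were seen. Mybpc3, cardiac myosin-binding protein C, was at 0.44 to 0.73 FPKM in Silica and 1.29 to 1.61 with ATL-III, a rise of 1.35 ± 0.23 (adjusted p = 0.00206, edgeR) that held without any single library. It reached an FPKM of 1 with ATL-III and in Control 2 and Control 3, so it too was tested through libraries where it is high. The call of Myom1, an M-band protein, was lost without some libraries, which left 1 higher call without Control 2, Control 3, Silica 1, Silica 3, ATL-III 1 or ATL-III 2.

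Of 13 calcium-handling genes, 10 were tested, and 2 fell after silica (4 without Silica 2), with a median of -0.44. These were Hrc, a calcium-binding protein of the sarcoplasmic reticulum, at -1.49 ± 0.28 (adjusted p = 0.00706, edgeR), and Srl, sarcalumenin, at -1.17 ± 0.23 (adjusted p = 0.00824). Both reached an FPKM of 1 in Control alone (1.54 to 2.16 for Hrc, 1.52 to 1.66 for Srl). They were thus tested only through the group where they are high, which tilts the counts and median of this list against Control toward lower. Casq2, cardiac calsequestrin, was at -0.86 ± 0.28 (adjusted p = 0.0524). With ATL-III 8 of the 10 were lower than in Control, with a median of -1.24, and 4 were lower than in Silica, with a median of -0.55 (Slc8a1, Cacna1c, Jph2 and Pln, named after their values were seen). Of these 4 calls 2 were left without Silica 1, Silica 2, ATL-III 1 or ATL-III 2. No gene of the calcium list was called higher with all libraries in the fit.

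Of 15 genes of cardiac energy metabolism, 13 were tested, with a median of -0.48, and 3 fell after silica: Cox6a2, a muscle subunit of cytochrome oxidase, Ckm, cytosolic muscle creatine kinase, and Ckmt2, its mitochondrial counterpart. The count was 0 without Control 3, Silica 1 or Silica 3, and 1 without Control 1. Cox6a2 fell by 0.78 ± 0.19 on the log2 scale after silica (adjusted p = 0.021, edgeR) and was higher with ATL-III than in Silica by 0.81 ± 0.19 (adjusted p = 0.0125). Its FPKM was 23.0 to 30.5 in Control, 11.3 to 19.1 in Silica and 20.9 to 29.5 with ATL-III; the lower call was lost without Control 1, Control 3, Silica 1 or Silica 3 and the higher one without Silica 3 or ATL-III 2. Ckm was at -1.75 ± 0.47 (adjusted p = 0.0298, edgeR) and Ckmt2 at -1.05 ± 0.32 (adjusted p = 0.0437) after silica. Ckm had 211 counts in Control 3 against 76 and 73 in Control 1 and Control 2, and was at -1.06 without Control 3. Its call was lost without Control 3, Silica 1 or Silica 3 (adjusted p up to 0.135). Against Silica, 1 of the 13 was lower with ATL-III and 2 higher (Cox6a2 and Hspb7), with a median of -0.19. The lower one was Ankrd1, a cardiac ankyrin repeat protein that is also expressed outside muscle, at -1.33 ± 0.24 (adjusted p = 0.00304, edgeR), a call that held without any single library. Hspb7, a small heat shock protein of muscle, was at 0.80 ± 0.25 (adjusted p = 0.0375), and its call was lost on leaving out any 1 library other than Control 2 and ATL-III 3. Ankrd1 and Hspb7 were named after their values were seen. Against Control, 4 of the 13 were lower with ATL-III (median -0.58), 2 without Control 1, Control 3 or ATL-III 2 and 1 without ATL-III 1.

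Among 14 cardiac transcription factors, 7 were tested, with a median of -0.20, and 1 fell after silica: Tbx5, a T-box factor of heart and lung mesenchyme, by 0.80 ± 0.14 on the log2 scale (adjusted p = 0.00557, edgeR). Hopx and Srf, the next in order of p, were at -0.25 and -0.20 and did not pass the test. Nkx2-5, a defining factor of the cardiac lineage, had 5 counts in Control 3 and 0 in the other 8 libraries, and Hand1 had 0 in all 9, where a count of 0 allows up to 3 counts.

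Outside the members, genes typical of atrium or ventricle were thinly covered. Mybphl, on the atrial list, is also counted among the sarcomere partners. Of 12 atrial and conduction genes, 4 were tested, with a median of -0.23, and 0 were called after silica, including Pam at -0.29 (adjusted p = 0.153, edgeR), Mybphl at -0.58 (adjusted p = 0.173) and Dkk3 at -0.16 (adjusted p = 0.295). With ATL-III 3 of the 4 were lower than in Control, among them Mybphl at -1.11 ± 0.30 (adjusted p = 0.0263), lost without Control 2, Control 3 or any 1 ATL-III library, and Dkk3 at -0.54 (adjusted p = 0.00496). Of 6 ventricular genes 2 were tested. Myl3, the ventricular essential light chain, had 47 to 101 counts in Control, 11 to 22 in Silica and 6 to 11 with ATL-III, and was called lower in both comparisons with Control. Its FPKM reached 1 in Control alone (1.40 to 3.05, at most 0.62 elsewhere), so it was tested only through the group where it is high. The 101 counts are those of Control 3. Myh7, the beta heavy chain, was at -0.55 ± 0.28 after silica (adjusted p = 0.192, edgeR). Myl2, the ventricular regulatory light chain, stayed between 0 and 0.32 FPKM in all 9 libraries, and Irx4, a ventricular factor, had 0 counts in each. The summed FPKM of the ventricular list was 3.91 to 5.64 in Control and 1.31 to 1.69 in Silica, where that of the 10 members was 198.8 to 229.3 and 99.4 to 128.2.

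Of 20 smooth muscle and pericyte genes, 19 were tested. After silica 9 of these fell, 0 rose and 10 did not pass the test, with a median of -0.51 and values up to 0.42. The number that fell was 6 to 10 on leaving out 1 library. Among those that fell were Tagln at -0.89 ± 0.15 (adjusted p = 0.00388, edgeR), Cnn1 at -0.91 ± 0.17 (adjusted p = 0.00705) and Smtn at -0.96 ± 0.19 (adjusted p = 0.00831). With ATL-III, 10 of the 19 were lower than in Control and 0 higher, with a median of -0.54. Against Silica, 3 were higher and 5 lower with ATL-III, with a median of -0.20. The lower ones included Hhip, a hedgehog-binding protein, at -1.48 ± 0.14 (adjusted p = 8.85e-05, edgeR), Pdgfrb, a pericyte receptor, at -0.86 ± 0.14 (adjusted p = 0.00136) and Cald1, caldesmon, at -0.52 ± 0.10 (adjusted p = 0.0044), whose calls held without any single library and which were named after their values were seen. Tagln, a smooth muscle actin-binding protein, was higher by 0.47 ± 0.15 (adjusted p = 0.042, edgeR), a call lost on leaving out any 1 library other than Silica 2 and ATL-III 3 (adjusted p up to 0.155). Cnn1, calponin, was higher by 0.70 ± 0.17 (adjusted p = 0.0148), lost without Silica 1 or ATL-III 2. These 3 higher calls fell to 0 without Silica 1 or ATL-III 2 and to 1 without Silica 3, and the 5 lower ones to 3 without Silica 3, ATL-III 1 or ATL-III 3. Whether cardiac and smooth muscle genes differ in their response was not tested.

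Most skeletal muscle genes were highest in Control 3. Of 28 skeletal muscle genes, 25 had a count in some library, and 19 were highest in Control 3, of which 13 were more than 2-fold above every other library. Acta1, skeletal actin, was at 10.4 FPKM there and at most 0.18 elsewhere, Mylpf, the fast regulatory light chain, at 23.3 and at most 3.06, and Tnnc2, fast troponin C, at 6.40 and at most 0.22. Control 3 was also highest for 11 of 12 adipocyte genes, with Adipoq, the fat cell hormone adiponectin, at 20.8 FPKM against at most 4.50, and Cfd, adipsin, at 99.0 against at most 33.3. Of the 10 members 4 were highest in Control 3, and Tnnt3 was the 1 member more than 2-fold above every other library. Of the 28 skeletal genes 4 were tested, with a median of -1.13 after silica. Of these Myl1, an essential light chain of fast fibres, fell after silica by 1.52 ± 0.46 on the log2 scale (adjusted p = 0.0429, edgeR), a call lost without Control 3 (-1.02, adjusted p = 0.178) and also without Control 1, Silica 1, Silica 3 or ATL-III 1. With ATL-III 2 of the 4 were lower than in Control, Myl1 and Tmem38a, with a median of -1.36. Myl1 was at -2.16 ± 0.48 (adjusted p = 0.0101, edgeR), and this call held without any single library, at -1.66 without Control 3. Tmem38a, a channel of the sarcoplasmic reticulum, was at -0.57 (adjusted p = 0.0379), and 1 of the 2 calls was left without any 1 Control library, Silica 3, ATL-III 1 or ATL-III 3. After silica, Mylpf was at -2.31 ± 0.75 (adjusted p = 0.0541) and Tmem38a at -0.48 (adjusted p = 0.0657). Of 12 adipocyte genes 7 were tested, with a median of -1.56, and 6 fell after silica, 3 without Control 3, 1 without Silica 1 and 2 without Silica 3. Cfd was at -1.68 ± 0.51 (adjusted p = 0.0456, edgeR), a call lost on leaving out any 1 library other than Control 2 (adjusted p up to 0.227), and at -0.66 without Control 3. Fabp4, the fat cell lipid carrier, was at 0.07 (adjusted p = 0.914).

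**Figure D4:**
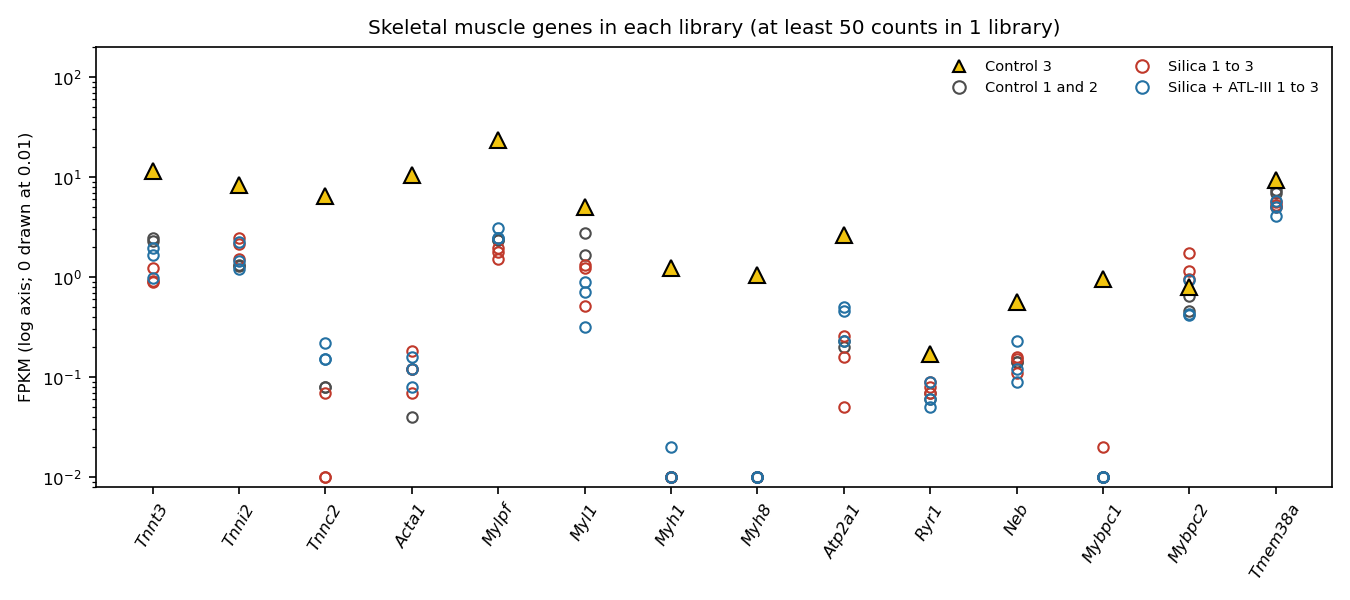
FPKM (log axis, zeros drawn at 0.01) of 14 skeletal muscle genes, Tnnt3 included, with at least 50 counts in some library, with Control 3 as triangles and the other 8 libraries as circles. Control 3 is highest for each gene drawn but Mybpc2, with Acta1 at 10.4 against at most 0.18.

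Other cell types moved with the same groups. The summed FPKM of 12 macrophage genes was 7830 to 9938 in Control, 15392 to 17571 in Silica and 10517 to 13904 with ATL-III, and 11 of the 12 rose after silica. That of 12 neutrophil genes was 556 to 3884 in Control, 732 to 4500 in Silica and 30039 to 45345 with ATL-III, and the 10 tested rose with ATL-III against Silica. Sums of some other lists were lower in Silica or with ATL-III, though part of these ranges overlap those of Control. The sum of 10 endothelial genes was 415 to 432 FPKM in Control, 264 to 337 in Silica and 362 to 451 with ATL-III, and 2 of the 10 fell after silica (1 without Control 3 or Silica 1, 4 without Silica 2). Mesothelial genes summed to 122 to 159 FPKM in Control, 92.4 to 105 in Silica and 94.2 to 176 with ATL-III, with 1 of 6 tested called lower after silica, 0 without any 1 Control library, Silica 1, Silica 3 or ATL-III 2, and 2 or 3 without Silica 2, ATL-III 1 or ATL-III 3. Fibroblast genes summed to 386 to 422 FPKM in Control, 326 to 396 in Silica and 198 to 266 with ATL-III, where 6 of 10 were called lower and 1 higher than in Control. Erythroid genes summed to 1134 FPKM in ATL-III 1 and to 4994 or more in the other 8 libraries. The part of these cell types in the lower share of cardiac transcripts was not tested. The lung label was matched by Sftpc, the alveolar type 2 surfactant gene, at 19802 to 30186 FPKM, and Ager, of alveolar type 1 cells, at 557 to 961. Genes of oesophagus and thymus, which can be dissected with the lung, were low. None of 9 oesophageal and squamous genes was tested, with sums of 0.67 to 3.48 FPKM, and 1 of 7 thymus genes was, with sums of 0.47 to 4.11. In Control 3, by contrast, skeletal muscle genes summed to 76.8 FPKM and adipocyte genes to 220, against 16.3 and 78.8 in Control 1. Whether muscle, fat or heart tissue came with any lung was not tested. The best covered thymus genes, Themis and Cd8b1, had 30 to 94 and 8 to 87 counts per library. Libraries held 16047175 to 17792481 counts in genes, and no pair within a group agreed within sampling noise (chi-square over its degrees of freedom at least 6.93).

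Among 15449 tested genes outside the members, 81 had an r over 0.9 with the mean pattern of the 9 cardiac members over the 9 libraries. The 10 closest were Rtkn2 (0.974), Phlpp1 (0.966), Col12a1 (0.966), Csrp3 (0.964), Usp31 (0.959), Arhgap39 (0.954), Lmod2 (0.951), Thbs3 (0.951), Mat2a (0.948) and Abhd14b (0.947). Csrp3 and Lmod2, a leiomodin of striated thin filaments, are also sarcomere partners, and the others of the 10 are on none of the muscle lists. Rtkn2, the closest, is on a list of alveolar epithelial genes. For Tnnt3, 10 genes had an r over 0.9, led by Cdon (0.938), Rps27a-ps1 (0.929), Pgm2l1 (0.929), 4833420G17Rik (0.927) and Mylpf (0.923). Its pattern is set mostly by Control 3.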

How the data were processed

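Poly(A) RNA of 9 lung libraries (3 Control, 3 Silica, 3 Silica + ATL-III) was sequenced, per the labels' protocols. The submitters' processing notes name cutadapt 1.9.1, HISAT2 2.0.1, HTSeq 0.6.1 and mm10, without roles; neither the annotation release nor the strand setting is given in the sources used here. The table deposited by the authors holds whole-number counts per gene and FPKM, per the file headers. FPKM recomputed from count, exonic length and the column total lay within 0.006 of the deposited FPKM for 100% of values, so FPKM carries no correction for composition.

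Counts were fitted with edgeR 4.0.16 (R 4.3.3; TMM factors, quasi-likelihood test, 3 group means over all 9 libraries, 6 residual degrees of freedom). The test covered the 15459 genes that reached FPKM 1 in 3 or more libraries, p-values were adjusted by Benjamini-Hochberg over all of them, and genes under 0.05 were called. Adjusted p-values in the text come from this fit. The SE is the log2 fold change over the square root of its F. The fit was tested on simulated data. Lists are described by counts and medians, with the shares and median of all tested genes given once per comparison, and no list was tested.

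Totals of 16047175 to 17792481 counts per library set the precision; members with few counts, such as Tnnt3, are the least precise. Alternatives were DESeq2 1.42.0, limma 3.58.1 on log2(FPKM + 0.5), + 0.1 or + 1, RLE factors, library totals alone, no filter beyond 1 count, an FPKM of at least 5, the 6 compared libraries alone, a replicate block, and leaving out each library.

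The members and lists were chosen with earlier results of these data known. All members are named. Of each muscle list the 3 tested genes with the smallest p after silica are named, of the adipocyte and thymus lists the 2 with the highest mean FPKM, and the 10 genes most like the cardiac members and the 5 most like Tnnt3 by Pearson r of log2 CPM. Other names were chosen after their values were seen. Gene positions in the table are not used, since their build could not be settled.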

Additional observations from a re-analysis of the deposited data

How the results depend on the processing

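The median log2 fold change of the members kept its sign and stayed within the spread between libraries under every alternative run. Leaving out 1 library moved it from -1.04 to -0.83 for Silica against Control, from -0.53 to -0.13 for Silica + ATL-III against Silica, and from -1.47 to -1.13 for Silica + ATL-III against Control. Over the same omissions the members called lower numbered 5 to 8, 0 to 3 and 6 to 9, and all genes called 862 to 3944, 1925 to 3877 and 1474 to 2864, against 2615, 3279 and 2451 with all libraries. For Silica against Control the totals were 1179, 1147 and 862 without Control 1, 2 or 3, 865 and 1202 without Silica 1 or 3, and 3944 without Silica 2. For ATL-III against Silica they were 2103, 2044 and 1925 without Silica 1, Silica 3 or ATL-III 2, and for ATL-III against Control, 1590 and 1474 without Control 1 or 3. The members called lower with ATL-III against Silica, 1 in all, became 2 with DESeq2, 3 with no filter beyond 1 count, 0 with limma at each of the 3 pseudocounts and 0 in the 6 compared libraries alone. In that comparison single omissions turned the sign of Myl7 (-0.6155 to 0.0387, turned without Silica 1, adjusted p = 0.943) and, without ATL-III 2, of Tnnt2 (-0.18 to 0.27, adjusted p = 0.484), Tnni3 (-0.0051 to 0.24, adjusted p = 0.986) and Myh6 (-0.23 to 0.71, adjusted p = 0.636). The cause was not tested. With library totals alone the median of all tested genes after silica moved from -0.01 to -0.11 and the share of higher calls from 53.8% to 32.7%; deposited FPKM carries the same shift. Every member kept its sign against Control there. The replicate block gave 8, 1 and 9 members called lower and 2120, 2822 and 2109 genes, with no member call changed. The labels do not say whether libraries of the same number are paired. Of 9 same-numbered pairs 1 had correlated deviations over 0.1 (range -0.13 to 0.12). Pairs of unlike number reached -0.14 and 0.13, so these values do not decide whether libraries were paired. Tnnt3, with 25 to 63 counts in 8 libraries, had the largest SE of the 10 members in each comparison (0.56 to 0.61).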
